A study of Saccharomyces cerevisiae with 15 samples.

Results

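The libraries compared here hold ribosome footprints of glucose-grown budding yeast, prepared with or without cycloheximide. They are 4 of the 15 libraries of the series, taken by their labels, with 3 replicate footprint libraries that received the drug and 1 that did not. All came from the strain YWG25 of the Sigma1278b background, grown with glucose in YPD, a rich medium, at 30 °C until the optical density was near 0.7. For the 3 drug libraries the labels give 100 µg/ml of cycloheximide, collection by centrifugation and lysis with glass beads. For the library titled WT +GLU noCHX fast harvest Ribo-seq they state that no step contained the drug, and that cells were filtered, frozen in liquid nitrogen and cryomilled. Drug, harvest and lysis thus differ together and their parts in any difference cannot be told apart. The treatment text with the drug is repeated among the labels of the lone library too, so its absence rests on the title and description. No mating type or marker genotype is given in the sources used here. Whether the replicates are separate cultures is not stated, and the spread behind each p-value may therefore be technical. Set beside these 4 are 3 RNA libraries of glucose-grown cells and 5 footprint libraries of starved cells, those without glucose. Of the 5, 3 received the drug, 1 is titled fast harvest without it, and 1 is titled only as without it. The last is called the slower-harvest library here, a name inferred because its title does not say fast harvest.

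Cycloheximide binds the large ribosomal subunit and blocks elongation, and it is added before harvest to hold ribosomes where they are on the mRNA. Footprints are stretches of mRNA that stay protected inside ribosomes during digestion with RNase I. Their count for a gene reflects both how much mRNA there is and how many ribosomes it carries, and footprints alone do not separate these. Filtration and freezing are used to shorten the time between the culture and lysis, in which cells can still change what they transcribe and translate. The question here was which genes of the library without the drug lay outside the spread of the 3 libraries with it.

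Total counts were 4159880, 8680468 and 6509688 in drug replicates 1 to 3 and 30575562 in the library without the drug. A floor of 3 counts corresponds to 0.721, 0.346, 0.461 and 0.0981 counts per 1000000 counts (CPM) in these 4 libraries. Between pairs of drug libraries the median gene differed by 0.13 to 0.22 on the log2 scale, and between the lone library and each of them by 0.24 to 0.31. Spearman correlations across the 5267 genes tested were 0.980 to 0.992 among drug libraries and 0.967 to 0.977 with the lone library, a description only, since genes share each library.

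Several genes at or near 0 in the drug libraries were plainly present in the library without the drug, including common laboratory markers. HIS3 (YOR202W), a histidine biosynthesis gene used as an auxotrophic marker, had 0, 2 and 0 counts with the drug and 455 without, a ratio per total counts of 144 (exact 95% interval 39.6 to 1192). TRP1 (YDR007W), a tryptophan biosynthesis gene and also a marker, had 2, 3 and 8 counts against 284, a ratio of 13.8 (7.96 to 26.3). HPF1 (YOL155C), a cell wall mannoprotein, had 4, 11 and 23 counts against 8939, a ratio of 149 (108 to 211). IME4 (YGL192W), an mRNA methyltransferase of meiosis, had 2, 0 and 8 counts against 249, a ratio of 15.8 (8.43 to 33.3). The intervals cover counting error only. These 4 genes were also seen in the starved library of fast harvest without the drug, with 90, 243, 5730 and 341 counts, while the starved library of slower harvest held 0, 0, 4 and 2. The 3 RNA libraries of glucose-grown cells held 7, 14, 37 and 31 counts of them in sum.

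Other markers did not follow the same pattern. URA3 had 1 count in each drug library and 0 without the drug, and LYS2, ADE2 and MET17 were not called, with log2 changes of -0.59, 0.12 and 0.07. Of the alpha-cell genes, MF(ALPHA)1, a pheromone precursor, had 1, 2 and 3 counts against 131, and MF(ALPHA)2 had 0 in every drug library against 69. SAG1, the alpha-agglutinin, had 5, 6 and 5 counts against 124. Its RNA was present in the 3 RNA libraries of glucose-grown cells, at 43.9, 23.4 and 21.3 CPM. Those libraries held 5 and 4 counts in sum of MF(ALPHA)1 and MF(ALPHA)2. STE3, the a-factor receptor and the highest of these genes, went the other way, at 10.1, 9.63 and 11.05 CPM against 5.36, and was not called (edgeR adjusted p = 0.096). MATALPHA1 and MATALPHA2, the alpha mating-type regulators, had 0 counts in the drug libraries and 4 and 0 in the lone one, and both share sequence with silent copies. The library without the drug therefore stands apart from the 3 others in genes that can mark a strain or mating type, and whether it came from the same genotype was not tested.

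Against this background, 222 of 5267 genes (4.21%) passed the test at an adjusted p under 0.05 (edgeR quasi-likelihood F test, Benjamini-Hochberg over all genes), 125 higher (2.37%) and 97 lower (1.84%) in the library without the drug. The spread in this test comes from the 3 drug libraries alone, and the lone library is assumed to vary like them. Scaling by total counts, which moved the median of all genes to -0.21, gave 53 higher and 112 lower, and upper-quartile factors, with a median of -0.12, gave 72 and 114, so the balance of directions depends on the scaling and log2 changes are best read against the median of -0.03. Without drug replicate 2 only 58 genes were called, without replicate 1 there were 821 and without replicate 3 there were 338. DESeq2 called 367. With the 4 starved libraries in the same edgeR fit just 6 genes were called, HPF1, HIS3, PHO5, TIR2 and DSE1 higher and IRC23 lower, and every other call named here was lost in that fit. The number called in the main test and in each of these 3 was 56, of which 31 were higher and 25 lower.

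By range alone, 3573 genes (67.8%) lay outside the 3 drug libraries by some amount, and 162 (3.08%) did so by at least 2-fold, 65 above (1.23%) and 97 below (1.84%). All 222 genes called were outside the range, 110 of them by at least 2-fold, and another 52 genes outside by 2-fold were not called. At the margin, VTC4 stood at 2.01 times the highest drug library and ETR1 at 1.97 times, while PRY2 stood at 0.499 and YLR152C at 0.504 times the lowest. Between the 10th and the 90th percentile of genes the log2 change ran from -0.63 to 0.45.

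**Figure D1:**
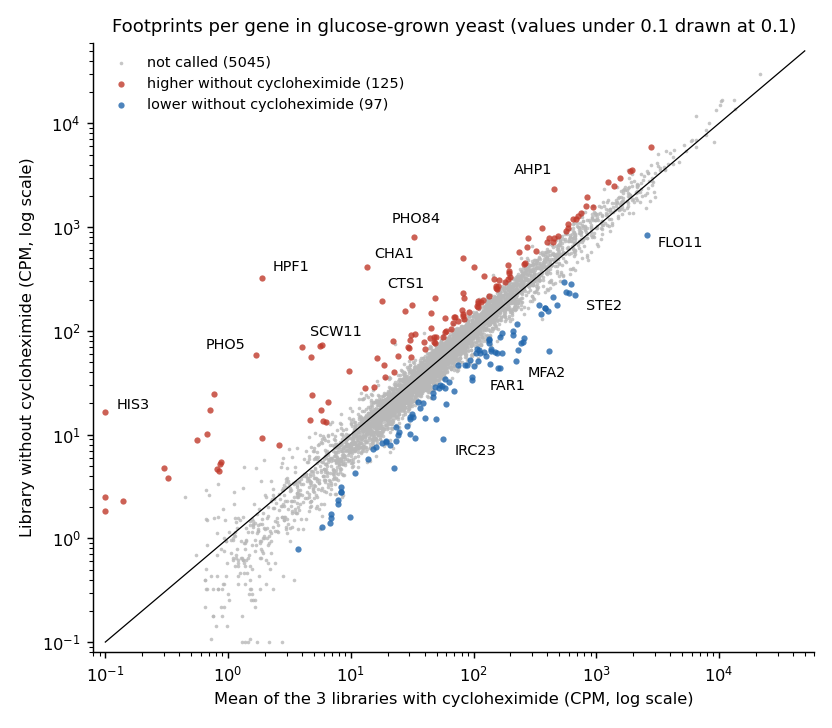
Each point is 1 of the 5267 genes tested, with the mean of the 3 drug libraries across and the library without the drug upward, both in CPM on log axes, and the line marks equality. Called genes higher (125, red) and lower (97, blue) without the drug leave the diagonal at all levels, with HPF1, CHA1 and PHO84 far above it and IRC23, MFA2 and FLO11 below.

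Genes of mating and haploid identity fell together in the library without cycloheximide. Yeast of mating type a makes a-factor, senses alpha-factor through a receptor coupled to a G protein, and passes the signal through a kinase cascade to the transcription factor Ste12. Of 8 a-cell specific genes 7 were called lower, of 12 haploid-specific genes 11, and of 12 tested pheromone-induced genes 4, beside 1.84% of all genes. The 3 lists were drawn up after the values of some members had been seen, so their counts describe and do not test. In bulk samples such as these, fewer cells of a type and less RNA per cell cannot be told apart. Summed over the a-cell list, footprints were 1703, 1725 and 1738 CPM in the drug libraries and 593 without the drug. Summed over the haploid list they were 1425, 1394 and 1415 CPM against 497. The median log2 changes were -1.40, -1.44 and -0.94, and 8 of 8, 12 of 12 and 11 of 12 members lay below the drug range, beside 34.9% of all genes. In the same library the alpha-cell list summed to 17.2 CPM, against 11.4, 10.6 and 12.3 with the drug, and HIS3, TRP1, HPF1 and IME4 appeared. Of its 6 members 4 were tested and 3 called higher, but MF(ALPHA)1 and MF(ALPHA)2 hold nearly all their counts in the lone library, and 0 of the 3 calls stayed without each drug library in turn. The part of these genes in the fall was not tested.

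Among the pheromone genes, MFA2 (YNL145W), which encodes an a-factor precursor, stood at 184, 233 and 253 CPM with the drug and 51.0 without (95% Wilson interval 48.5 to 53.8), a log2 change of -2.13 ± 0.23 (SE; edgeR adjusted p = 0.0018). MFA1, the second precursor gene, stood at 121, 76.4 and 93.3 CPM against 33.4. The drug libraries scatter more for MFA1 than for MFA2, yet the lone value lies below all of them in both. STE2 (YFL026W), the alpha-factor receptor, stood at 731, 662 and 638 CPM against 220 (214.8 to 226), a change of -1.62 ± 0.19 (edgeR adjusted p = 0.00277). STE6, the exporter of a-factor, stood at 246, 263 and 265 CPM against 84.9. BAR1, the secreted protease that degrades alpha-factor, stood at 321, 381 and 361 CPM against 146. Each of these genes was lower in the lone library than in every drug library. AGA2, the binding subunit of a-agglutinin, was the weakest of those called, at 72.4, 85.3 and 98.5 CPM against 46.4, and ASG7 at 1.29 CPM was not called.

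Genes of the signalling chain below the receptor were lower as well. The G protein subunits GPA1 (alpha), STE4 (beta) and STE18 (gamma) changed by -1.33, -1.85 and -1.44 on the log2 scale. STE4 (YOR212W), which carries the signal onward, stood at 186, 155 and 138 CPM against 44.1. The scaffold STE5 changed by -1.39, and the mating kinase FUS3 (YBL016W) stood at 223, 224 and 239 CPM against 64.7, a change of -1.82 ± 0.18 (edgeR adjusted p = 0.00103). The drug libraries agreed closely for FUS3, and the lone value lay far under all of them. KSS1, the kinase of filamentous growth, changed by -0.98. STE12, the transcription factor at the end of the cascade, stood at 155, 136 and 155 CPM against 62.3. FAR1 (YJL157C), which arrests the cell cycle in response to pheromone, stood at 145, 174 and 178 CPM against 43.8, a change of -1.92 ± 0.19 (edgeR adjusted p = 0.00122). HO, the endonuclease of mating-type switching, stood at 156, 189 and 167 CPM against 61.8, and AXL1, a protease that matures a-factor, at 66.2, 53.1 and 58.9 against 19.6. NEJ1, a regulator of end joining in haploids, was the one haploid gene that missed the threshold, at 16.7, 10.9 and 12.9 CPM against 5.40 (edgeR adjusted p = 0.0521). Without each drug library in turn, 9 haploid and 4 a-cell genes stayed called, with 1 of the pheromone-induced genes.

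Of the pheromone-induced genes, SST2, which shuts off the G protein, stood at 163, 123 and 122 CPM against 47.6, and FUS1, needed for cell fusion, at 60.0, 59.6 and 56.9 against 28.0. PRM5 and the phosphatase MSG5 were also called, at -1.12 and -0.90. FUS2, AGA1, FIG2, KAR4, PRM1, PRM3, PRM4 and CIK1 were not, with changes of -1.72 to -0.29, and FIG1, PRM2 and PRM6 were too low to test.

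Many of these genes are activated by Ste12 through the pheromone response element, TGAAACA. The letters occur on either strand in the 500 bases before the start codon of 11.8% of 5693 genes. They occur there in 7 of 8 a-cell, 6 of 12 haploid and 10 of 12 pheromone-induced genes, and in 6, 6 and 3 of their called members. These shares describe the lists and do not test why the genes fell. FAR1 holds none in that window. The windows nearest to the start codon in STE2, MFA2 and FUS1 are shown because they place the element in a receptor, a pheromone and a fusion gene. They were read 5′ to 3′ on the coding strand from the RefSeq R64 assembly of the S288C reference strain, not of Sigma1278b, and capitals mark the element.
STE2, chrVI:82356-82415, plus strand: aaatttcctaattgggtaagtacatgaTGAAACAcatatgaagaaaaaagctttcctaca
MFA2, chrXIV:352192-352251, plus strand: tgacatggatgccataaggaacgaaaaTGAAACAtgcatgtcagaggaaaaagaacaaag
FUS1, chrIII:71616-71675, plus strand: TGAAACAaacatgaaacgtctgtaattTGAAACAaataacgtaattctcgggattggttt

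**Figure D2:**
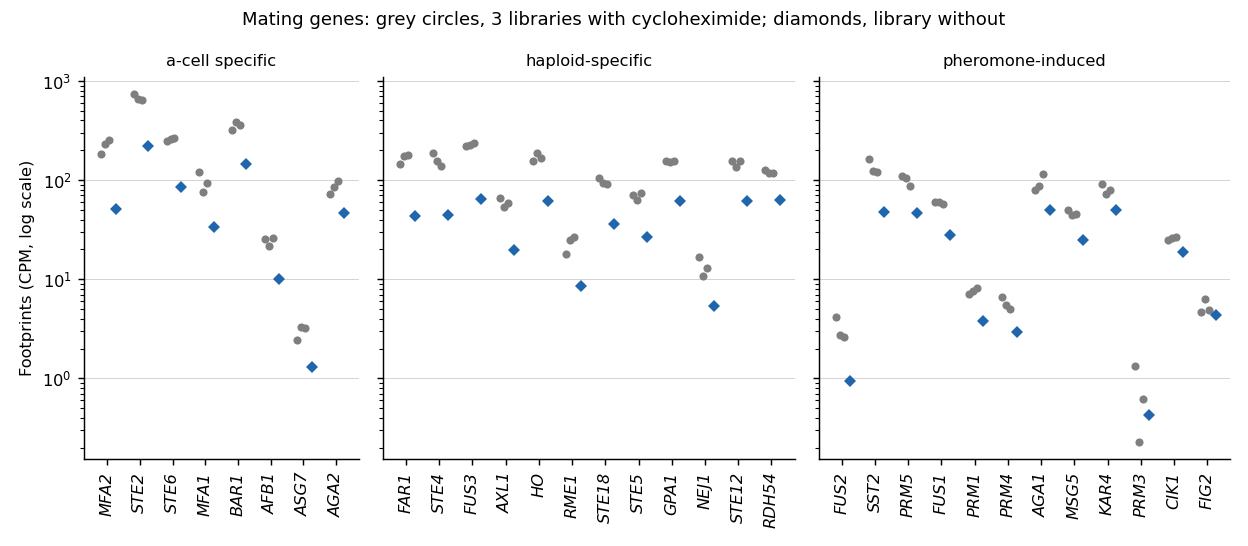
Footprints in CPM on a log axis for the tested members of 3 mating lists, with the 3 drug libraries as grey circles and the library without the drug as a diamond. The diamond lies under all 3 circles for each gene except PRM3.

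FLO11 (YIR019C), the adhesin of filaments and biofilms, was lower too. It stood at 2219, 2699 and 2804 CPM with the drug and 844 without, a change of -1.61 ± 0.22 (edgeR adjusted p = 0.00503). TEC1, a transcription factor of filamentous growth, stood at 125, 126 and 129 CPM against 57.7, and MSB2, the mucin sensor of that pathway, at 521.5, 644 and 715 against 284. NFG1, a regulator of the same pathway, stood at 266, 222 and 270 CPM against 78.5. TEC1 and MSB2 were picked after their values were seen, and no list of filamentous growth genes was counted. FLO10, another adhesin, changed by -1.20 and was not called. FLO11 is among the calls lost when a single drug library is left out.

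Cell wall genes held 11 calls higher and 1 lower of 36, beside 2.37% and 1.84% of all genes. The median log2 change was 0.19, or 0.01 under total counts, where 8 were called higher and 3 lower. Several of the 11 cut the wall between dividing cells. CTS1 (YLR286C), the chitinase of cell separation, stood at 13.6, 15.9 and 24.1 CPM with the drug and 196 without, a change of 3.44 ± 0.23 (edgeR adjusted p = 8.37e-05). SCW11 (YGL028C), a wall glucanase, stood at 3.96, 2.64 and 5.52 CPM against 70.0, a change of 4.14 ± 0.27 (edgeR adjusted p = 8.13e-05). DSE1 stood at 7.04, 4.47 and 5.37 CPM against 71.6, and DSE2, a secreted wall protein, at 7.92, 4.01 and 5.52 against 72.9. The lone value was several times the highest drug library for all 4 genes. The glucanase gene DSE4 and EGT2 changed by 1.73 and 1.09. The others called higher were the mannoproteins CWP1, SED1, TIR1, TIR2 and TIR3, and the lower gene was FLO11. CWP1 (YKL096W) stood at 36.7, 30.5 and 27.6 CPM against 179, a change of 2.51 ± 0.17 (edgeR adjusted p = 8.37e-05). TIR2 (YOR010C) had 3, 5 and 6 counts against 481, a ratio of 21.7 per total counts (exact 95% interval 12.8 to 40.1). It entered the test through the lone library, but its RNA was present, with 225 counts in sum in the 3 RNA libraries of glucose-grown cells. Without each drug library in turn 7 of the 11 stayed called. These genes rose in the library where the marker genes appeared, and the part of that difference was not tested for this or the next 2 groups. PRY3, a secreted protein gene outside the list, changed by 2.48.

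Genes of the phosphate regulon rose. In low phosphate the transcription factor Pho4 turns on transporters, phosphatases and the enzymes that store polyphosphate in the vacuole. Of 14 genes tested 10 were called higher, beside 2.37% of all genes, and 0 lower, or 6 and 0 under total counts, and 12 lay above the drug range, beside 32.9%, with a median log2 change of 1.25 on a list drawn up after values were seen. Of these 14, SPL2, PHO11 and PHM6 had under 10 counts in each drug library and entered the test through the lone library. SPL2 and PHO11 are among the 10 called, and PHO11 shares 93.2% of its 28-mers with other genes. Summed footprints were 914, 1035 and 748 CPM with the drug and 3025 without. PHO84 (YML123C), the high-affinity phosphate transporter, stood at 23.1, 65.3 and 9.36 CPM against 803 (792 to 813), a change of 4.58 ± 0.63 (edgeR adjusted p = 0.00542). The drug libraries varied severalfold among themselves for this gene, and the lone value exceeded all of them. VTC3 (YPL019C), of the polyphosphate polymerase, stood at 82.3, 103 and 60.0 CPM against 501.5, a change of 2.61 ± 0.23 (edgeR adjusted p = 6.05e-04). VTC4, its catalytic subunit, VTC1 and VTC2 changed by 1.31, 1.18 and 0.94. SPL2, an inhibitor of low-affinity phosphate uptake, had 5, 9 and 1 counts against 691. PHO5, the secreted acid phosphatase, had 10, 12 and 10 counts against 1638, but shares sequence with near-identical copies, so its reads may be split among them. The 3 RNA libraries of glucose-grown cells held 35 counts of SPL2 and 630 of PHO5 in sum. PHO81, the kinase inhibitor of the pathway, and PHO86 changed by 0.96 and 0.93, and the vacuolar phosphatase PHO8 by 0.06, which was not called. Without each drug library in turn 5 of the 10 stayed called.

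Pho4 binds CACGTG, a palindrome found within 500 bases of the start codon in 6.27% of genes. It occurs there in 11 of the 14 members and in all 10 of those called. The members were listed as parts of this regulon, so a high share describes the list and does not test why they rose. PHO84 and VTC3 hold 2 matches each, and the windows nearest to the start codon are shown for the transporter and for a subunit of the polymerase, from the same assembly and in the same direction, with capitals for the motif.
PHO84, chrXIII:26182-26241, minus strand: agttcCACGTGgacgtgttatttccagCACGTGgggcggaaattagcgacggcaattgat
VTC3, chrXVI:517297-517356, minus strand: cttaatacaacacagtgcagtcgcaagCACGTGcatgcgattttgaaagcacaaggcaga

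Several chaperones rose. Of 33 genes 12 were called higher, beside 2.37% of all genes, and 0 lower, 23 lay above the drug range, beside 32.9%, and the median log2 change was 0.48, or 0.30 when scaled by total counts, with 7 calls. HSP82 (YPL240C), the inducible Hsp90, stood at 386, 340 and 355 CPM with the drug and 977 without (966 to 989), a change of 1.44 ± 0.16 (edgeR adjusted p = 0.00225). HSC82, its constitutive partner, stood at 3028, 2882 and 2508 CPM against 5876, and STI1, which links Hsp70 to Hsp90, at 749, 891 and 890.4 against 1946. HSP104, which pulls apart aggregates, stood at 255, 265 and 293 CPM against 638. Lone values were above every drug library in each case. SSA1, a cytosolic Hsp70 with near-identical copies, changed by 1.49 ± 0.21 (edgeR adjusted p = 0.00581), and the mitochondrial HSP60 by 1.15. The Hsp70 partners SSE1, YDJ1 and SIS1 changed by 0.88, 0.74 and 0.71. Only HSP82 stayed called without each drug library in turn. The heat shock element was searched as 3 alternating units of GAA and TTC, each 2 bases apart, on either strand. It occurs within 500 bases of the start codon in 1.48% of genes and in 14 of the 33 members, 6 of them called, but not in this window of HSP82. SSA1 holds 3 matches and HSP104 has 2 that overlap, and the windows nearest to the start codon are shown with capitals for the matches.
SSA1, chrI:141657-141716, minus strand: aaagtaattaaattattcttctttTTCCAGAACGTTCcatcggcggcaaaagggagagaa
HSP104, chrXII:88302-88361, plus strand: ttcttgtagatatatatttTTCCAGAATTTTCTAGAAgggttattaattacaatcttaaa

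**Figure D3:**
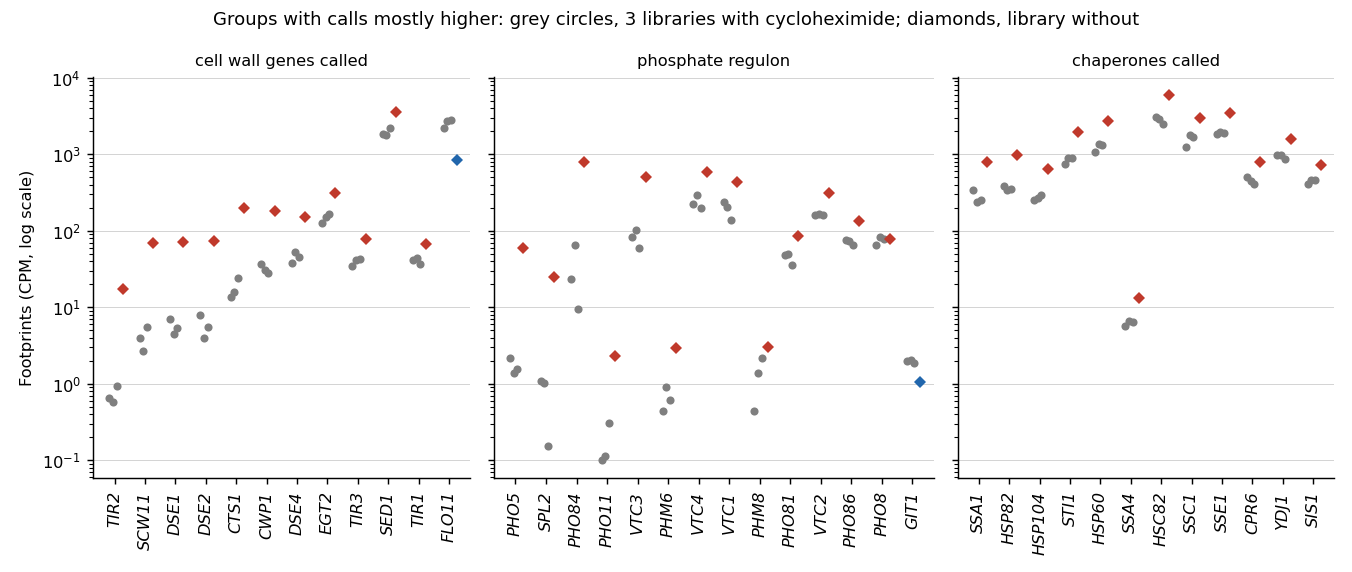
Footprints in CPM on a log axis, with the 3 drug libraries as grey circles and the library without the drug as a diamond, red where higher and blue where lower, and values under 0.1 drawn at 0.1. The phosphate panel shows all 14 tested members, the others the 12 cell wall genes and the 12 chaperones called, and SCW11 rises from at most 5.52 to 70.0 CPM and PHO84 from at most 65.3 to 803.

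In 5 lists of the translation machinery 12 of 305 genes (3.93%) were called, 10 higher and 2 lower, a share near the 4.21% of all genes. RPL28 (YGL103W), the ribosomal protein where mutations give resistance to cycloheximide, stood at 4644, 5152 and 4439.5 CPM with the drug and 4244 without, a change of -0.16 ± 0.18 (edgeR adjusted p = 0.624). Of 57 small-subunit ribosomal protein genes 1 was called, RPS22B, at 98.3, 73.9 and 72.6 CPM against 233, and of 79 large-subunit genes 1 was lower, RPL35A, which has a near-identical copy. Median log2 changes of the 2 lists were 0.07 and 0.06, and turned to -0.10 and -0.13 under total counts. Ribosome biogenesis genes were above the drug range in 98 of 122 cases, beside 32.9% of all genes, but by a median of 0.33 that was 0.15 under total counts. Of them 5 were called higher, NSR1, UTP20, ERB1, NOC2 and NOP14, at 0.69 to 0.91, and 0 under total counts. Initiation factors had a median of 0.35 with 1 call in 29, TIF4632, which encodes an isoform of eIF4G, at 0.94. Among 18 elongation and release factors 3 were called higher and 1 lower, the higher ones being TEF1 and TEF2, which are near-identical copies encoding eEF1A, and NEW1, and the lower one HEF3.

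Genes with regulatory upstream reading frames or frameshifting had 0 calls of 17 by edgeR, beside 4.21% of all genes. So few members cannot show a share below that. Their median log2 change was -0.27. GCN4 (YEL009C), the activator of amino acid synthesis and the classical case of upstream reading frame control, stood at 107, 164 and 225 CPM against 89.8, a change of -0.89 ± 0.34 (edgeR adjusted p = 0.161). The lone value was the lowest of the 4, beside a wide spread among the drug libraries. CPA1, whose leader encodes an arginine attenuator peptide, changed by -0.27, while that leader frame itself, listed as YOR302W, stood at 49.0, 36.2 and 64.3 CPM against 14.2, a change of -1.80 ± 0.31 (edgeR adjusted p = 0.0156). YER053C-A, a frame of 114 nt, stood at 674, 213 and 360.4 CPM against 63.7. Both short frames were picked after their values were seen, and both stayed called without each drug library in turn. PDR5, the multidrug exporter, was not called at 0.46 ± 0.25 (edgeR adjusted p = 0.293). Of 20 drug efflux genes 1 was called higher, beside 2.37% of all genes. It was RSB1, a sphingoid base transporter at 5.43 CPM.

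**Figure D4:**
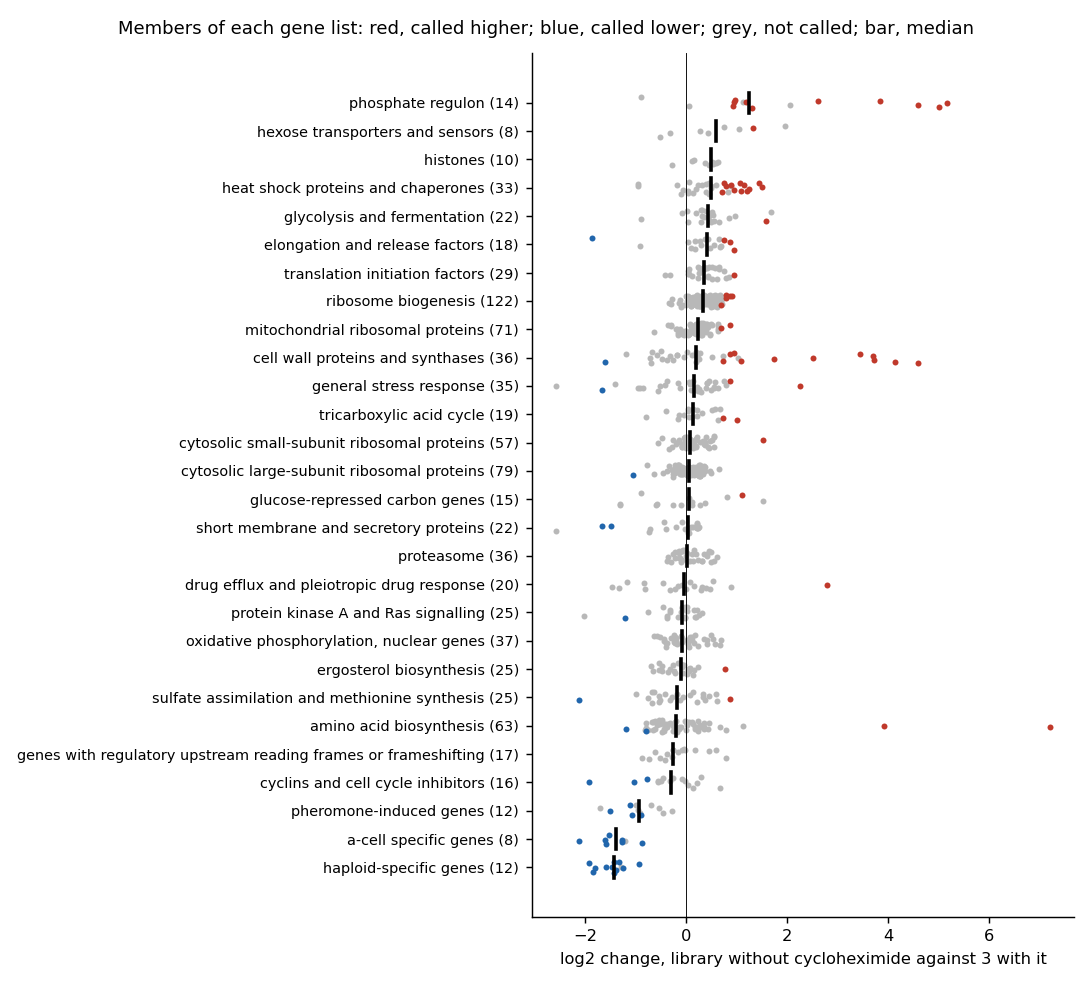
The log2 change of every tested member of 28 gene lists, with genes called higher in red, called lower in blue and not called in grey, and a black bar at each list's median. The alpha-cell and marker lists are left out. The phosphate regulon (1.25) has the highest median and haploid-specific genes (-1.44) the lowest, while most other lists lie within 0.5 of 0.

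The remaining lists held few calls, several at a share near the 2.37% higher and 1.84% lower of all genes. Cyclins and their inhibitors held 3 lower of 16, FAR1 and the G1 cyclins CLN1 at -1.04 and PCL1 at -0.77. Amino acid biosynthesis had 2 higher, the markers HIS3 and TRP1, and 2 lower of 63, and sulfate assimilation 1 and 1 of 25, CYS3 and SUL2. General stress genes had 2 higher and 1 lower of 35. The tricarboxylic acid cycle and mitochondrial ribosomal proteins had 2 higher each, of 19 and 71. Hexose transporters (HXT4, of 8 tested), glycolysis and fermentation (PDC6, of 22), ergosterol synthesis (ERG4, of 25) and glucose-repressed carbon genes (SUC2, of 15) had 1 each. SUC2, the invertase repressed by glucose, stood at 11.9, 13.3 and 14.0 CPM against 28.2. The protein kinase A list had 1 lower of 25, PDE1, a phosphodiesterase of cyclic AMP, and short membrane and secretory proteins 2 lower of 22, OST4 and HOR7. Under total counts the tricarboxylic acid cycle had 0 higher and 1 lower, ergosterol synthesis 0 and 2, and of the lists of this paragraph just amino acid biosynthesis (2) and general stress (1) still had a call higher. Histones (10), the proteasome (36) and nuclear genes of oxidative phosphorylation (37) had 0 calls by edgeR, and the 8 mitochondrially encoded genes were not in the tables.

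Outside the groups above, CHA1 (YCL064C), the serine and threonine deaminase, stood at 18.3, 11.4 and 10.9 CPM with the drug and 412 without (405 to 420.0), a change of 4.97 ± 0.22 (edgeR adjusted p = 9.31e-06). AHP1, an abundant peroxiredoxin, stood at 423, 496 and 435 CPM against 2352, and GPX2, a glutathione peroxidase, at 4.18, 4.59 and 5.37 against 56.0. Transporters were called higher too, among them SIT1 for siderophores at 1.84, OPT1 for oligopeptides at 1.73 and TAT1 for amino acids at 1.19. These 5, picked after their values were seen, stayed called without each drug library in turn. Among genes with a symbol and a mean of at least 20 CPM the largest fall was that of IRC23 (YOR044W), of uncertain function, which stood at 68.2, 46.2 and 56.5 CPM against 9.06 (8.01 to 10.3), a change of -2.64 ± 0.26 (edgeR adjusted p = 0.00111). SRD1, linked to the processing of ribosomal RNA precursors, stood at 31.0, 31.5 and 37.1 CPM against 9.21, and HOR7, of hyperosmotic stress, at 148, 267 and 318.5 against 77.2.

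Starved cells offered the same contrast for fast harvest, in libraries that the glucose-grown one does not use. The 3 drug libraries without glucose were set against the fast-harvest library and against a slower-harvest library. Both lack the drug and share those 3 controls. The slower library is not titled fast harvest, so its contrast may differ from the glucose-grown one in harvest. In the fast contrast 0 of 5414 genes (0%) were called by edgeR, with 318 at an unadjusted p under 0.05, and DESeq2 called 52. In the slower contrast 0 of 5338 (0%) were called, with 626 at an unadjusted p under 0.05. When starved drug replicate 3 was left out, 236 genes were called in the fast contrast and 580 in the slower one. The reason was not tested. The starved drug libraries spread more, with a common dispersion of 0.158 against 0.0182. In counts simulated with that same dispersion for every gene, 17% of 4-fold changes were found.

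Directions can still be set side by side. Of the 113 genes called higher with glucose and tested in both starved contrasts, 92 (81.4%) were higher in the fast contrast and 77 (68.1%) in the slower one, beside 69.4% and 61.7% of all genes with a log2 change above 0 in glucose. Of the 94 called lower, 85 (90.4%) and 73 (77.7%) were lower, beside 68.7% and 62.7%. Outside the starved drug range in both libraries lay 46 of the higher genes (40.7%, beside 26.5%) and 39 of the lower (41.5%, beside 24%).

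**Figure D5:**
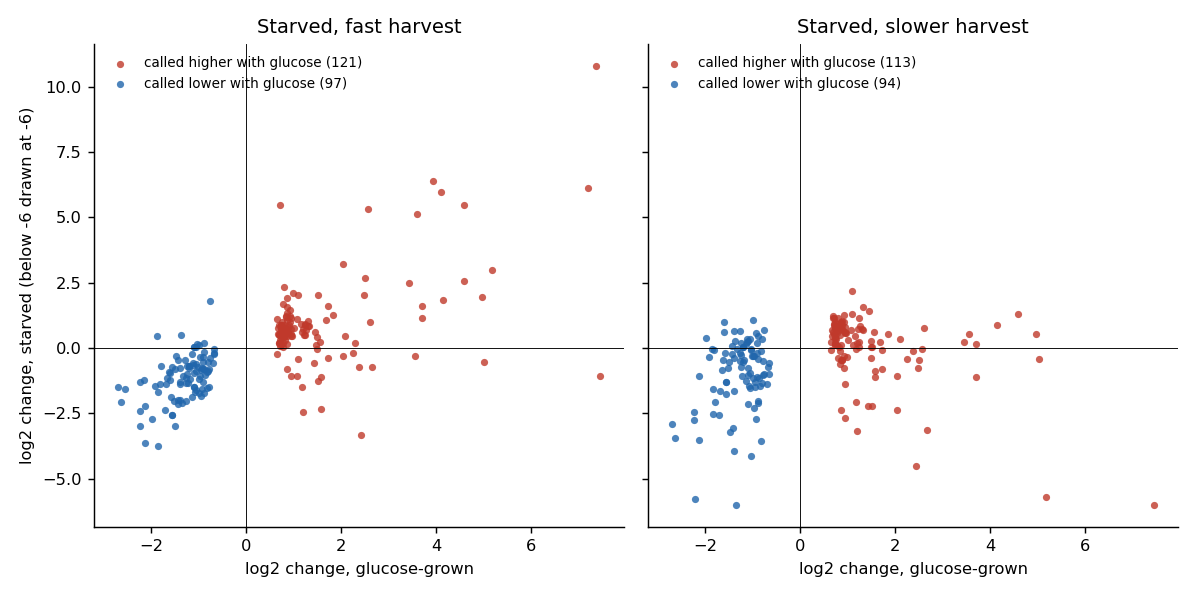
Log2 change of the genes called in glucose, across, against the log2 change of the same genes in starved cells, upward, for the fast-harvest library (121 higher, 97 lower) and the slower one (113 and 94). Red and blue mark genes called higher and lower with glucose, and more of them keep their side of 0 in the fast panel (92 of 113 and 85 of 94) than in the slower one (77 and 73).

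The a-cell, haploid and pheromone-induced lists had medians of -1.16, -1.41 and -1.55 in the fast contrast and -0.32, -0.09 and -0.34 in the slower. Of the alpha-cell genes just SAG1 and STE3 were tested there, with medians of -2.39 and -2.56. SAG1 stood at 8.89, 10.8 and 27.0 CPM in the starved drug libraries, 1.52 in the fast and 0.664 in the slower one, the opposite direction to glucose. The cell wall list had 1.14 and 0.48. HPF1, TIR2, TRP1 and IME4 were high in the starved fast library and near 0 in the slower one. The difference between the 2 starved libraries was not tested, as each is single. Phosphate genes had medians of 0.56 and 0.45 and chaperones 0.31 and 0.55. PHO84 stood at 127, 147 and 86.2 CPM in the starved drug libraries, 715.5 in the fast and 309.6 in the slower one. SPL2 lay inside the starved drug range, at 41.4, 156 and 81.6 CPM, then 64.6 and 72.4. Of 12 phosphate genes tested in the fast contrast 7 lay above the drug range and 0 below, beside 30% and 26.5% of all genes. In the slower contrast 6 of 12 lay above and 3 below, beside 32.3% and 32.9%. HSP104 stood at 1839.5, 2699.7 and 2301 CPM, then 3199 and 5184. IRC23 stood at 41.7, 44.8 and 38.9 CPM, then 9.94 and 3.99, and STE4 at 98.8, 84.7 and 128, then 32.3 and 35.9. Those 2 are among 39 genes called lower that lay below the drug range in all 3 libraries without the drug, and 46 genes called higher lay above it in all 3. The difference of the drug contrast between glucose states was tested over 8 libraries and called 1 of 5475 genes (0.0183%), the cell wall gene TIR1. In simulated counts that test recovered 0% of 2-fold and 5% of 4-fold changes, so genes not called may differ between the states too.

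Length went with direction. Genes called higher had a median coding length of 1689 nt, those called lower 873 nt and those not called 1257 nt. Among 177 genes of at most 300 nt the median log2 change was -0.28, with 14 called lower (7.91%) and 1 higher, and among 456 genes over 3000 nt it was 0.08, with 5 lower and 16 higher (3.51%). In all 4 libraries the authors' counted length was the coding length less 24 nt, so the same region was counted in each. The starved slower library ran further in the same direction, from -1.88 in the shortest to 0.62 in the longest bin, and the fast one from -0.58 to 0.15. Starved drug replicate 3, a control of both, was counted over the coding length plus 2 nt. The other starved footprint libraries were counted over that length less 24 nt, and the part of this difference in the starved trends was not tested. Across genes the Spearman correlation of log2 change with coding length was 0.16 in glucose, 0.20 in the fast and 0.66 in the slower starved contrast, a description only, since all genes share the libraries.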

How the data were processed

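Footprint counts per gene were used as the authors deposited them, as whole numbers not normalised. The authors' deposited RPKM values, counts per length and library total, were used only to work out the counted length. It matched the coding length less 24 nt in 93.4% to 93.7% of genes of the 4 libraries compared (tolerance 0.5 nt) and the coding length plus 2 nt in starved drug replicate 3. The aligner, the counter and its strand setting, and the genome build were not given in the sources used here. Another 3 deposited count columns that match no sample were not used. RefSeq R64 gave names and coding lengths for 5699 of 5704 identifiers, and 308 genes that overlap another or share at least 20% of their 28-mers with one are called uncertain.

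Groups were taken from the titles. Genes with low counts were removed by filterByExpr (minimum count 10), libraries were scaled by TMM, and the quasi-likelihood F test of edgeR 4.0.16 (R 4.3.3) was applied. In the glucose contrast a gene could pass this filter through the lone library alone, since its group holds 1 library. This was so for HIS3, TRP1, IME4, TIR2, SPL2, PHO11, PHM6, SAG1, MF(ALPHA)1 and MF(ALPHA)2, among others. Adjusted p-values follow Benjamini and Hochberg over all genes tested, with calls under 0.05. CPM values are TMM-scaled within each contrast, and a level of 1 gene is compared only with its own level elsewhere. In simulated counts, 91% of 2-fold and 100% of 4-fold changes were recovered for the glucose contrast. Changes were planted only in genes above 20 CPM, and every gene was drawn with the same dispersion, 0.0182 for that contrast. For the test of the difference between glucose states, 0% of 2-fold and 5% of 4-fold changes were recovered. Recovery in lower or more variable genes was not simulated. Depth sets floors of 0.0981 to 0.721 CPM, and reads carry no molecular identifiers, so intervals cover counting error only. Genes were named by rule, as the 10 largest rises and 10 largest falls among called genes with a symbol and a mean of at least 20 CPM, up to 3 called members and the highest member of each list, and RPL28, GCN4 and PDR5. Other list members and KSS1 were also named outside this rule, and only some of the exceptions are marked in the text. The members and lists, 25 of them and 6 added after values were seen, were chosen with earlier results of these data known. Alternatives were other scalings, filters, depths, models (DESeq2 1.42.0) and left-out libraries. Motifs were searched by matching letters on both strands, and their shares in a list do not test why its genes differ. A further item examined is not reported here.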

Additional observations from a re-analysis of the deposited data

Results flagged for a closer look

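The cell wall gene TIR1 (YER011W) was the 1 gene whose drug contrast differed between the glucose states by a test of the difference itself, and it was named after its values were seen. With glucose it stood at 40.9, 43.3 and 36.8 CPM with cycloheximide and 66.5 without, a log2 change of 0.72, and in starved cells at 0.731, 0.773 and 0.770 CPM, beside floors of 3 counts at 0.379, 1.22 and 1.25 CPM, and 34.4 in the fast-harvest library, a change of 5.47. The difference of the changes was 4.66 (edgeR adjusted p = 0.0258). The call was lost when any of 5 of the 6 drug libraries was left out and under total counts. In the starved library of slower harvest TIR1 stood at 0.664 CPM. The test of the difference recovered 5% of 4-fold changes in simulated counts, so TIR1 need not be the only gene that differs.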

How the results depend on the processing

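No paired analysis was possible because the library without cycloheximide is single and carries no replicate number. In the glucose contrast the 222 calls became 367 with DESeq2, 6 when all 8 libraries were fitted together, 142 without the genes of the mating and phosphate lists (chosen after seeing the data), and 58 to 821 when 1 drug library was left out. Other scalings, filters, thinning and leaving out uncertain genes gave 149 to 232. Outside the drug range lay 3573 genes by any margin and 38 by 4-fold, beside 162 by 2-fold. The starved fast contrast, with 0 calls, gave 52 with DESeq2, 10 in the 8-library fit and 0 to 236 without 1 drug library, and the slower library gave 580 without starved drug replicate 3 (chosen after seeing the data). The difference between states, with 1 call, gave 0 under total counts, 12 with DESeq2 and 0 to 8 without 1 library. Checks of named genes over these alternatives were counted as the same in 1529 cases, stronger in 13 and weaker in 401, and none as reversed. Changes close to 0 can still change sign with the scaling. The causes were not tested. Depth limits genes near the floor, and the lone library is the deepest of the 4.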
